A study of Arabidopsis thaliana with 8 samples.

Results

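The response described here is the one that 3 mutant genotypes of Arabidopsis thaliana have in common against the wild type: 6 mutant libraries, taken as the mean of their 3 genotypes, were set against 2 libraries of Col, the wild-type accession. These are all 8 libraries of the series, and they were chosen by their labels alone. The mutants, all in the Col background, carry chr11-/-chr17-/-, rlt1-/-rlt2-/- or fha2-/-, with 2 libraries each, and are named here by their labels chr11/17, rlt1/2 and fha2. Seedlings were used at day 11, after growth on MS plates at 22 °C with 16 h of light and 8 h of darkness, and mRNA libraries were made from total RNA of 0.05 g of tissue. Nothing in the labels tells whether the libraries of a genotype stem from plants grown apart, so that each p-value measures the spread between libraries, which may be technical. One pair of Col libraries serves every comparison, so an error in Col enters all of them at once.

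ISWI chromatin remodellers move nucleosomes along DNA with the energy of ATP. In Arabidopsis the CHR11 and CHR17 proteins are the ATPases of this family, the paralogs RLT1 and RLT2 are DDT-domain partners that bind them, and FHA2 is a protein with a forkhead-associated domain. Plants that lack the ATPases or the RLT partners are known for small stature and early flowering, and the complex helps to keep the genes of later developmental phases silent in seedlings.

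The libraries held 20962202 to 22012119 expected counts, which are estimates and can be fractional, and 20866 of the 25198 genes in the table passed the filter on low counts. The 20 most abundant genes took 21.35 to 22.52% of the counts in Col, 16.45 to 17.37% in fha2, 14.46 to 14.57% in rlt1/2, and 7.729 to 8.488% in the libraries labelled chr11/17. The leading principal component took 79.38% of the variance, and along it Col lay at -52.15 and -51.87, fha2 at -49.38 and -45.92, rlt1/2 at -3.696 and 2.785, and the libraries labelled chr11/17 at 95.63 and 104.6. The mutants are therefore not spread evenly around their mean, and fha2 lies next to Col.

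The targeted genes were checked first. RLT2 stood at 28.2 and 34.1 CPM (counts scaled to 1e6 per library with TMM factors) in Col and at 2.19 and 2.21 CPM in rlt1/2, and FHA2 at 24.0 ± 0.64 CPM (SD, n = 2) in Col and at 3.05 and 1.01 CPM in fha2. RLT1, listed as HB-1 (AT1G28420), was at 25.4 and 35.7 CPM in Col and at 15.9 and 16.8 CPM in rlt1/2. CHR11 was at 47.2 and 46.3 CPM in Col and at 73.4 and 69.7 CPM in the libraries labelled chr11/17, where CHR17 was at 22.6 and 22.9 CPM against 17.2 and 22.5 CPM in Col. Neither ATPase gene was lower there, so every direction given for that genotype rests on its label; reads from outside a disrupted stretch count towards a gene, and the kind of allele is not given in the labels. For these genes the mean of the mutants carries 1 genotype: RLT2 had a mean log2 fold change of -1.33 ± 0.09 (SE), made of -0.25, -3.82 and 0.09 in the chr11/17-labelled pair, rlt1/2 and fha2. RLT1 and CHR17 overlap other genes, so their levels depend on how reads were shared. With the neighbour's counts added, the log2 fold change of RLT1 in rlt1/2 was -0.52 (-0.90 alone). That of CHR17 in the libraries labelled chr11/17 was -0.11 (0.20 alone).

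In the mean of the mutants 4952 genes were higher than in Col and 5201 were lower at an adjusted p under 0.05 (edgeR quasi-likelihood test with Benjamini-Hochberg adjustment, used for every adjusted p in what follows). These are 23.7% and 24.9% of the genes tested, and 1138 (5.45%) and 1203 genes (5.77%) of them differed at least 2-fold. Taken one at a time, the genotype labelled chr11/17 had 34.8% of genes higher and 34.4% lower, rlt1/2 18.7% each way, and fha2 6.33% higher and 8.76% lower. A mean can pass with a single genotype far from Col, and the mutants themselves differed, in a test that does not use the Col means, at 15635 genes (74.9%), among them 4396 of the 4952 higher (88.8%) and 4622 of the 5201 lower genes (88.9%). Of the higher genes the mutant farthest from Col was the one labelled chr11/17 in 84.2%, rlt1/2 in 11.9% and fha2 in 3.94%. Of the lower genes these shares were 85.9%, 9.46% and 4.61%.

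A stricter rule counted a gene only where each of the 3 mutants differed from Col the same way, by the largest of the 3 p-values adjusted over all genes. By this rule 238 genes were higher (1.14% of those tested) and 439 were lower (2.1%), in all 677 genes (3.24%), which is 4.81% and 8.44% of the genes called in the mean. In all of them the 6 mutant libraries lay on one side of both Col libraries, as they did at 4834 (23.2%) of the 20866 genes tested. A change of at least 2-fold in each mutant was seen in 66 higher genes (0.316%) and in 46 lower genes (0.22%).

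Sharing a direction did not mean sharing a size. The 238 higher genes had a median log2 fold change of 2.02 for the genotype labelled chr11/17, 1.15 for rlt1/2 and 0.70 for fha2, and the 439 lower genes of -1.74, -0.85 and -0.61. Over all genes tested these medians were -0.01, 0.01 and 0.01. The mutants differed among themselves at 220 of the 238 (92.4%) and 390 of the 439 genes (88.8%), and fha2 was the one nearest to Col in 197 and 352 of them. Genes lower in all 3 mutants were abundant in Col, with a median of 80.2 CPM, against 11.4 CPM for the higher genes and 11.9 CPM for all genes tested. The genes were called from these same Col libraries, so the medians are a description only.

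**Figure D1:**
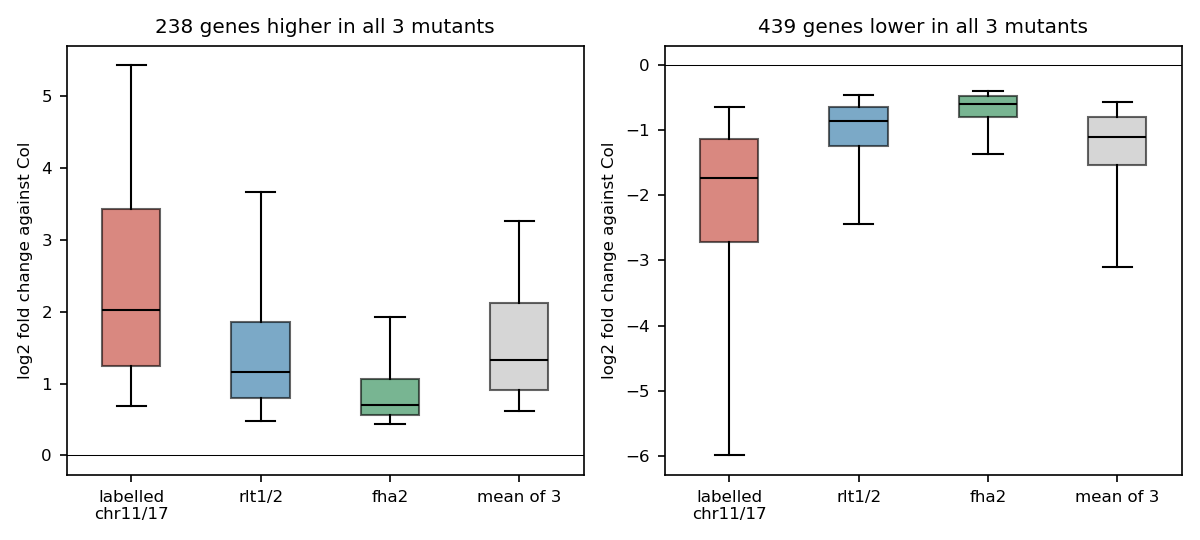
Log2 fold change against Col (vertical axis) of the 238 genes higher and the 439 genes lower in all 3 mutants, by mutant and for the mean of the 3; boxes span the quartiles, the line is the median and whiskers run from the 5th to the 95th percentile. The genes were chosen by these same values, so the boxes describe size only: the medians run from 2.02 through 1.15 to 0.70 on the higher side and from -1.74 through -0.85 to -0.61 on the lower side.

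Each comparison shares the same 2 Col libraries, and the count of genes in all 3 depends on them. Without Col replicate 1 there were 99 genes higher and 185 lower in all 3 mutants, and without Col replicate 2 there were 71 and 191. The second fha2 library weighed most, since 39 higher and 43 lower genes were left without it, and 144 and 186 without the first. Without rlt1/2 replicate 1 the counts were 159 and 285, and without replicate 2 they were 126 and 217. Leaving out a library labelled chr11/17 gave 297 or 307 higher and 588 or 616 lower genes. Through all 8 of these fits 68 genes passed, 32 higher and 36 lower.

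**Figure D2:**
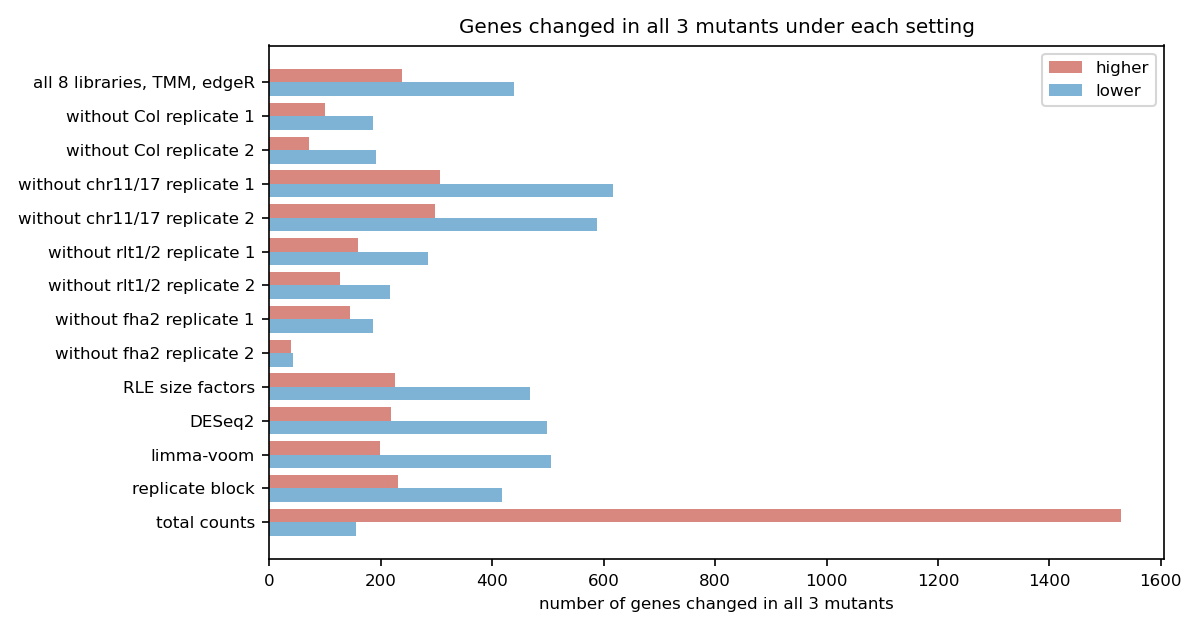
Number of genes higher (red) and lower (blue) in all 3 mutants (horizontal axis) with all 8 libraries, without each library in turn, and under other tools and scalings. Without the second fha2 library 39 and 43 genes were left, and with scaling to total counts the numbers were 1529 and 156.

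How the libraries are scaled decides the balance of higher and lower genes. TMM factors were 0.8407 and 0.8949 in Col and 1.024 to 1.086 in the mutants. Scaling to the total count instead gave all genes a median of 0.28 in the mean of the mutants (log2 fold change), up from 0.00, and 76.6% of the called genes were then higher, against 48.8% with TMM factors. Of the genes changed in all 3 mutants 90.7% were then higher, against 35.2%. Of the 677 genes 393 remained, 238 higher and 155 lower.

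FLC, the MADS-box repressor of flowering, is one of the 8 named genes that were lowest in all 3 mutants, ranked by the mutant nearest to Col. Its level was 3.62 and 4.48 CPM in Col, 0 and 0.0425 CPM in the libraries labelled chr11/17, 0.0876 and 0.0867 CPM in rlt1/2, and 0.662 and 0.658 CPM in fha2. A place on 1 side of both Col libraries was a condition for these 8 genes. All 6 mutant libraries of FLC were far below Col, in an order from chr11/17 to rlt1/2 to fha2. The counts behind these levels were 66 and 84 in Col and 1 in all in the libraries labelled chr11/17, a ratio 185-fold lower with an exact 95% interval from 32.7-fold to 7344-fold that covers counting error only. The mean log2 fold change was -5.08 ± 0.32 (adjusted p = 1.35e-07), with -5.45 in rlt1/2 and -2.61 in fha2, and the adjusted p for all 3 mutants was 0.00181. FLC is among the 68 genes.

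GASA6, of the family of small gibberellin-regulated peptides, was at 517 and 568 CPM in Col, 6.35 and 3.19 CPM in the libraries labelled chr11/17, 36.4 and 41.3 CPM in rlt1/2, and 194 and 144 CPM in fha2. EXPA8, an expansin that loosens cell walls, was at 245 and 221 CPM in Col, 3.63 and 3.27, 18.9 and 26, and 97.9 and 70.1 CPM in the same order. Both genes fell in every mutant, by a wide margin in the libraries labelled chr11/17 and least in fha2. Their mean log2 fold changes were -4.11 ± 0.14 and -3.64 ± 0.12 (adjusted p for all 3 mutants 7.14e-04 and 6.77e-04), and both are among the 68 genes. GASA6 overlaps another gene, and adding the counts of both left its mean log2 fold change at -4.11.

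IDD7, a zinc finger protein of the INDETERMINATE domain family, behaved differently. Its level was 30.1 and 28 CPM in Col, 7.3 and 6.68 CPM in the libraries labelled chr11/17, 7.84 and 8.59 CPM in rlt1/2, and 10.7 and 7.5 CPM in fha2. The 3 mutants lay within a narrow band well below Col, with log2 fold changes of -2.06, -1.82 and -1.68 (mean -1.85 ± 0.11, adjusted p for all 3 mutants = 2.09e-04), and no difference among them was called (adjusted p = 0.121). IDD7 is among the 68 genes.

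The remaining 4 of the 8 lower genes that the rule names were TCL1, an R3-type MYB repressor of trichome formation, RL3, a small MYB-like protein, SPX3, an SPX-domain protein of the phosphate response, and PAP24, a purple acid phosphatase. Their fha2 log2 fold changes were -2.43, -1.58, -1.54 and -1.76, and their mean log2 fold changes -3.27 ± 0.38, -3.96 ± 0.38, -2.87 ± 0.33 and -3.55 ± 0.29. None of the 4 is among the 68 genes: leaving out 1 library ended the call of TCL1 in 6 of 8 fits (adjusted p up to 0.24), of RL3 in 5 (up to 0.393), of SPX3 in 5 (up to 0.26) and of PAP24 in 2 (up to 0.128). The fha2 libraries of SPX3 stood apart from each other, at 8.96 and 2.46 CPM against 18.6 and 14.7 CPM in Col. PAP24 overlaps another gene, and its mean log2 fold change was -0.61 with the counts of both added.

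On the higher side BAM5 is a beta-amylase, an enzyme that cleaves starch chains. It was at 26.3 and 29.1 CPM in Col, 288 and 276 CPM in the libraries labelled chr11/17, 249 and 285 CPM in rlt1/2, and 189 and 117 CPM in fha2. All 6 mutant libraries were above both Col libraries, as the choice of these genes required, and the chr11/17-labelled and rlt1/2 levels overlapped. The log2 fold changes were 3.35, 3.27 and 2.47 (mean 3.03 ± 0.17, adjusted p for all 3 mutants = 1.21e-04), and BAM5 is among the 68 genes.

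MYC2, the central transcription factor of the jasmonate response, was listed at 0 counts in both Col libraries, and at 11.2 and 8.04 CPM in the libraries labelled chr11/17, 0.876 and 1.04 CPM in rlt1/2, and 3.58 and 3.03 CPM in fha2. Against a floor of 3 counts over the 2 Col libraries it was at least 118-fold, 11.8-fold and 40.7-fold higher, with an adjusted p of 0.00383 for all 3 mutants, and it passed in all 8 fits without 1 library. This result depends on how reads were shared with the neighbour AT1G32630: the 2 loci overlap, and their summed counts gave 16.1 CPM in Col and log2 fold changes of only 1.24, 0.30 and 0.41 (mean 0.65). RLP40, a receptor-like protein, is of the same kind, since it was listed at 0 in Col and with the counts of its overlapping neighbour added its log2 fold change was -0.51 in rlt1/2 and -0.18 in fha2, and 1.10 in the mean, where the libraries labelled chr11/17 alone were above Col.

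CSLG2, of the cellulose synthase-like family, was also at 0 counts in both Col libraries and overlaps no listed gene. It stood at 44.4 and 40.8 CPM in the libraries labelled chr11/17, 1.14 and 1.04 CPM in rlt1/2, and 0.309 and 0.175 CPM in fha2, which is at least 525-fold, 13.4-fold and 2.99-fold above the floor. The fha2 level rests on 7 and 4 counts. Its adjusted p for all 3 mutants was 0.037 and failed in 6 of the 8 fits without 1 library (up to 0.18), as that of RLP40 did (up to 0.173).

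SVL3, a protein related to glycerophosphodiester phosphodiesterases, RTFL21, a ROTUNDIFOLIA-like small peptide, and LTI65, a gene induced by abscisic acid and cold, had mean log2 fold changes of 4.85 ± 0.48, 4.09 ± 0.40 and 2.83 ± 0.28. LTI65 was at 0.603 and 0.693 CPM in Col, 10.5 and 7.14 CPM in the libraries labelled chr11/17, 2.41 and 2.34 CPM in rlt1/2, and 5.34 and 4.21 CPM in fha2, so that here rlt1/2 and not fha2 was nearest to Col. Its call failed without Col replicate 1 (adjusted p = 0.0922) and without Col replicate 2 (0.0757). The calls of SVL3 and RTFL21 failed without either Col library and without the second fha2 library, with adjusted p up to 0.131 and 0.188.

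**Figure D3:**
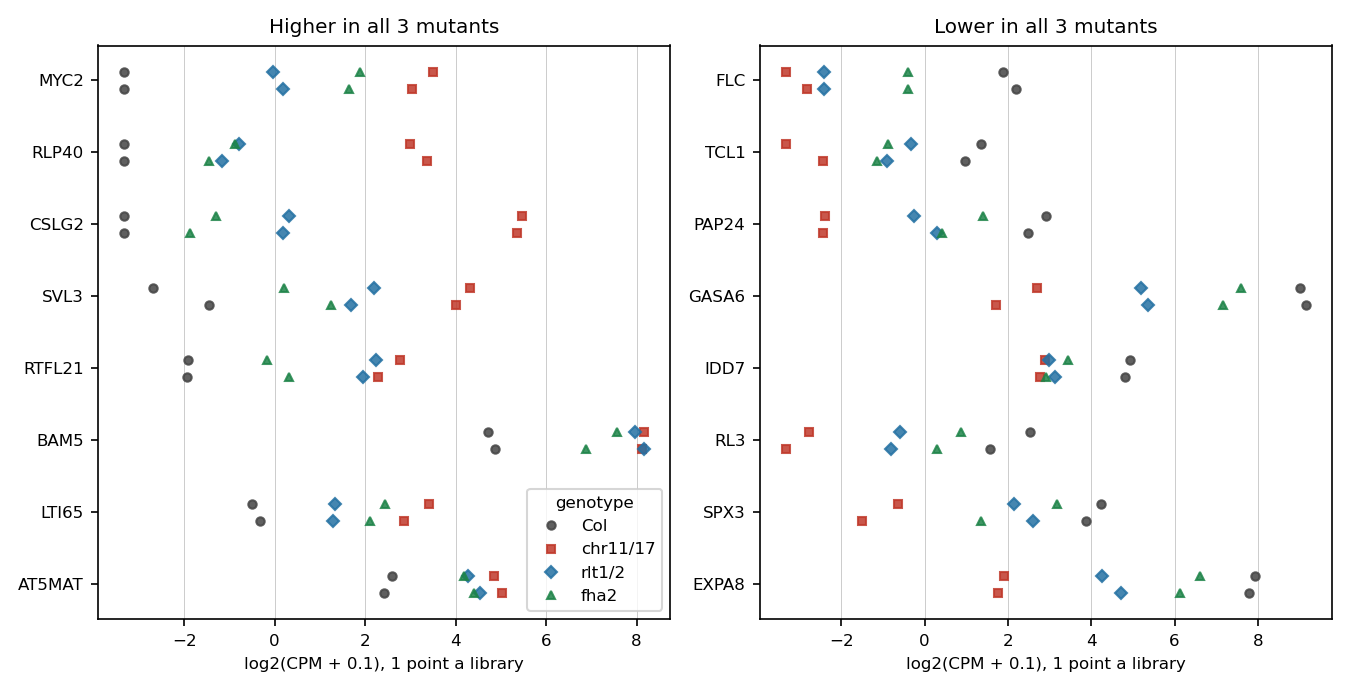
Levels of the 8 genes higher (left) and the 8 genes lower (right) in all 3 mutants that lay farthest from Col in the mutant nearest to it; the horizontal axis is log2(CPM + 0.1), each point is 1 of the 8 libraries and each colour and shape a genotype. Col points lie apart from all 6 mutant points in every line because this was a condition of the choice. The chr11/17 points lie farthest from Col in most lines, while those of BAM5, AT5MAT and IDD7 lie close to the other mutants.

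Genes of flavonoid and anthocyanin synthesis rose in all 3 mutants in most cases. Of 13 genes tested 12 were higher in the mean of the mutants and none was lower, and 11 were higher in all 3 mutants, against 23.7% and 1.14% of all genes. The members of this list and of those that follow were chosen with earlier results of these data known. Shares over all genes are therefore set beside the counts for scale only, not as a test. For the flavonoid list the median log2 fold changes were 3.02 for the genotype labelled chr11/17, 1.90 for rlt1/2 and 1.57 for fha2, and 2.18 in the mean. In RNA from seedlings, more or fewer cells of a type and more or less RNA per cell cannot be told apart, here and in the lists that follow.

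The late steps of the pathway stood out. DFR, dihydroflavonol reductase, was at 28.6 and 35.4 CPM in Col, 255 and 263 CPM in the libraries labelled chr11/17, 118 and 160 CPM in rlt1/2, and 92.3 and 113 CPM in fha2. LDOX, anthocyanidin synthase, was at 20.7 ± 4.37 CPM (SD, n = 2) in Col and at 234 and 232, 72.9 and 102, and 61.5 and 68.2 CPM in the mutants. AT5MAT, which adds malonate to anthocyanins, was at 5.97 and 5.28 CPM in Col and at 28.6 and 32.3, 19.3 and 23, and 18 and 21.1 CPM. In all 3 genes each mutant library lay above both Col libraries, as in all 238 genes higher in all 3 mutants. Their mean log2 fold changes were 2.27 ± 0.14, 2.41 ± 0.15 and 2.05 ± 0.13.

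The glucosyltransferase genes UF3GT and AT4G14090 (UGT75C1) had mean log2 fold changes of 2.53 ± 0.16 and 2.44 ± 0.16. Among the regulators TT8, a bHLH factor of the pathway, and PAP1 (AT1G56650), its MYB partner, had 2.18 ± 0.17 and 2.50 ± 0.25. DFR, LDOX, AT5MAT, UF3GT, AT4G14090, TT8 and GSTF12, a glutathione transferase needed to carry anthocyanins into the vacuole, make up 7 of the 68 genes that pass without any 1 library, with adjusted p for all 3 mutants from 1.42e-04 (AT5MAT and GSTF12) to 0.00189 (TT8). GSTF12 overlaps a much more abundant neighbour, and adding its counts gave a mean log2 fold change of -0.07 where GSTF12 alone had 2.29. AT4G14090 also overlaps another gene, and its counts were not added to those of its neighbour. When overlapping genes were left out, 10 genes of the list were tested and 9 were higher in all 3 mutants.

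The early steps moved less. TT4, chalcone synthase, was at 490 and 381 CPM in Col and at 492 and 484 CPM in fha2, where it was not called (log2 fold change 0.16, adjusted p = 0.42), while its mean log2 fold change was 0.79. TT5, F3H and TT7, the next steps, had fha2 log2 fold changes of 0.54, 0.60 and 0.85 and were called in all 3 mutants. FLS1, which makes flavonols in place of anthocyanins, had a mean log2 fold change of -0.06 and was not called. Without Col replicate 2 the list had 7 genes higher in all 3 mutants, and between 7 and 11 over the 8 fits.

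**Figure D4:**
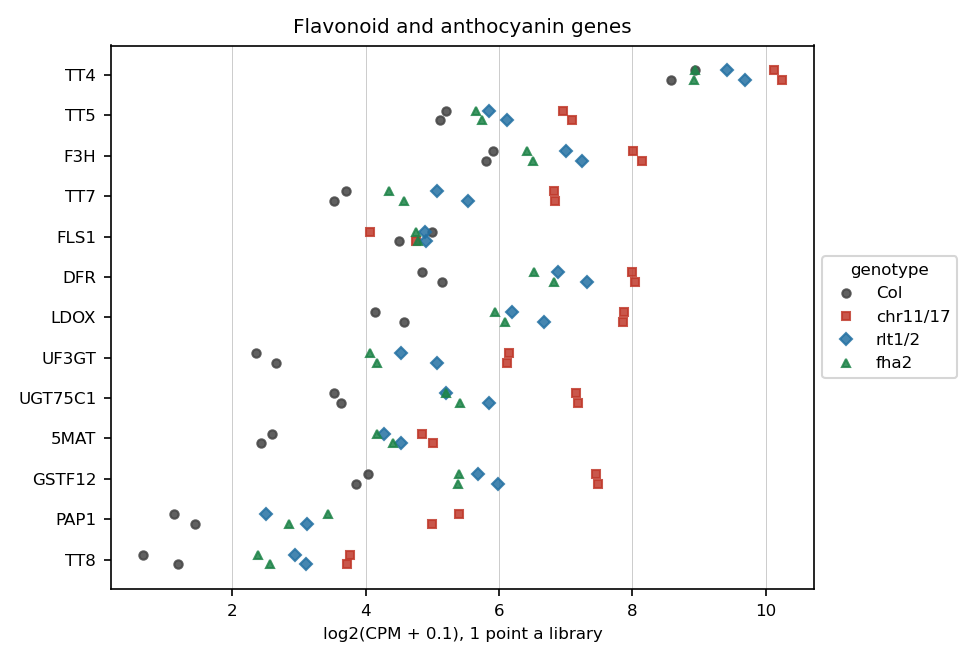
Levels of the 13 flavonoid and anthocyanin genes tested, from early steps at the top to regulators at the bottom; the horizontal axis is log2(CPM + 0.1), and each point is 1 of the 8 libraries. In the 11 genes other than TT4 and FLS1 all 6 mutant libraries lie above both Col libraries. The same holds for all 238 genes called higher in all 3 mutants, and for 11.1% of all genes tested.

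The genes of the photosynthetic apparatus went the other way. All 18 light-harvesting genes and all 10 genes of Rubisco and the Calvin cycle were lower in the mean of the mutants, against 24.9% of all genes, with median log2 fold changes of -1.17 and -1.18. By mutant the medians were -2.20, -0.87 and -0.58 for light harvesting and -2.17, -0.75 and -0.40 for Rubisco and the Calvin cycle, in the chr11/17-labelled pair, rlt1/2 and fha2. The 18 light-harvesting genes together held 156347 to 173783 CPM in Col, 104429 to 112078 CPM in fha2, 88412 to 88527 CPM in rlt1/2 and 28195 to 39849 CPM in the libraries labelled chr11/17.

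LHB1B1, a chlorophyll-binding protein of the photosystem II antenna, was at 3704 and 3526 CPM in Col, 126 and 90.7 CPM in the libraries labelled chr11/17, 1271 and 1239 CPM in rlt1/2, and 1994 and 1715 CPM in fha2. RBCS2B, a small subunit of Rubisco, was at 10778 and 9614 CPM in Col and at 852 and 962, 3462 and 3627, and 5930 and 5473 CPM. No mutant library reached the Col range for either gene, as in all 439 genes lower in all 3 mutants and 12.1% of all genes tested. Their mean log2 fold changes were -2.52 ± 0.11 and -1.95 ± 0.09, and adjusted p for all 3 mutants were 0.00398 and 0.00369, which became 0.0903 and 0.0856 without the second fha2 library.

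In the test of all 3 mutants 7 of the 18 light-harvesting and 6 of the 10 Rubisco and Calvin genes passed, against 2.1% of all genes. For light harvesting this number moved with the fit, from 1 without Col replicate 1, 2 without Col replicate 2, 1 without fha2 replicate 1, 0 without fha2 replicate 2, 4 without rlt1/2 replicate 1 and 3 without rlt1/2 replicate 2 to 17 without either library labelled chr11/17; it was 12 with no filter and 15 with DESeq2. For Rubisco and the Calvin cycle it was 3 without rlt1/2 replicate 1, without rlt1/2 replicate 2 or without fha2 replicate 1, and 1 without fha2 replicate 2. In the mean, all 18 and all 10 were lower in each of the 8 fits. LHCB2.3, CAB3, RBCS3B and PRK, phosphoribulokinase of the Calvin cycle, had mean log2 fold changes of -2.62, -1.98, -1.93 and -1.16, and each fell in all 3 mutants. Of these, the calls failed in 4, 6, 1 and 6 of the 8 fits, with adjusted p up to 0.154, 0.396, 0.113 and 0.41. Near-identical copies, such as CAB1 to CAB3 and the RBCS genes, share reads, so the split between them is uncertain. Per length, the authors' FPKM values of RBCS3B had means of 13968 in Col and 9166 in fha2, above those of LHB1B1 at 2386 and 1461.

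Auxin-responsive genes of the Aux/IAA and SAUR families, which respond within minutes to auxin and, in the SAUR case, promote cell expansion, were lower throughout. All 19 tested were lower in the mean of the mutants, with a median log2 fold change of -1.83, and 9 were lower in all 3 mutants, against 24.9% and 2.1% of all genes. The medians by mutant were -3.54 for the genotype labelled chr11/17, -1.48 for rlt1/2 and -0.70 for fha2.

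SAUR20 was at 27.3 and 27.5 CPM in Col, 0.408 and 0.468 CPM in the libraries labelled chr11/17, 8.59 and 9.71 CPM in rlt1/2, and 13.2 and 10.6 CPM in fha2. IAA29, an Aux/IAA repressor, was at 19.5 and 27.7 CPM in Col and at 0.181 and 0.0425, 2.15 and 2.95, and 9.45 and 9.04 CPM. Both fell in every mutant, and no mutant library reached Col. The latter holds for all 439 genes lower in all 3 mutants and for 12.1% of all genes tested. Their mean log2 fold changes were -2.91 ± 0.11 and -4.08 ± 0.19, and adjusted p for all 3 mutants were 6.64e-04 and 0.00238. SAUR20 and AT5G18030 (SAUR21, mean log2 fold change -2.65 ± 0.13) are among the 68 genes, while the call of IAA29 failed without fha2 replicate 2 (adjusted p = 0.0509). SAUR19 to SAUR24 are a cluster of near-identical copies that share reads, so they are not independent cases. The number of the 19 called in all 3 mutants was 5 with total counts, 3 without Col replicate 2, 4 without fha2 replicate 1 and 2 without fha2 replicate 2.

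Among the genes named for the lowest mean are 3 that were not detected in the libraries labelled chr11/17. RGF6, a peptide of the root meristem growth factor family, ACS4, an ethylene synthesis enzyme, and SAUR22 had 0 counts in both of those libraries. RGF6 was at 23.3 and 28.3 CPM in Col, and against the floor of 3 counts ACS4 was at least 43.5-fold and SAUR22 at least 214-fold lower. In rlt1/2 they were 4.37-fold, 26.3-fold and 5.43-fold lower, and in fha2 2.51-fold, 2.55-fold and 1.99-fold lower. RGF6 and SAUR22 passed the test of all 3 mutants (adjusted p = 6.77e-04 and 0.022) and ACS4 did not (0.0888); SAUR22 failed without Col replicate 2 and without either fha2 library (up to 0.225), whereas RGF6 is among the 68 genes. RGF6 overlaps a neighbour, and with its counts added the mean log2 fold change was -1.10.

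Limited to named genes that reach 2 CPM in a genotype and have all 6 mutant libraries above Col, the 5 of highest mean log2 fold change outside the 8 named for all 3 mutants were DXPS1, UGT73C2, TPS04, DELTA-VPE and BGAL7, which encode an isoprenoid enzyme, a glucosyltransferase, a terpene synthase, a vacuolar protease and a beta-galactosidase. DXPS1, at 0 counts in Col, was at 83.4 and 91.6 CPM in the libraries labelled chr11/17, 1.49 and 0.564 CPM in rlt1/2, and 0.177 and 0.219 CPM in fha2. BGAL7 was at 0.274 and 0.267 CPM in Col, and at 45.5 and 36.6, 11.1 and 13.5, and 0.751 and 0.877 CPM. None of the 5 passed the test of all 3 mutants (adjusted p from 0.104 for BGAL7 to 0.431 for TPS04). That the mutant libraries of each lay above both Col libraries was a condition of the choice, met by 11.1% of all genes tested.

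Of 14 flowering repressors 8 were lower and 2 higher in the mean of the mutants, against 24.9% and 23.7% of all genes, and 2, FLC and MAF4, were lower in all 3, against 2.1%. MAF4, a relative of FLC that was picked out after its values were seen, was at 3.29 and 3.36 CPM in Col, 0.953 and 0.638 CPM in the libraries labelled chr11/17, 0.964 and 0.911 CPM in rlt1/2, and 1.46 and 1.49 CPM in fha2 (mean log2 fold change -1.68 ± 0.22, adjusted p for all 3 mutants = 0.0346). It lost that call in 6 of the 8 fits without 1 library, those that leave out a library of Col, rlt1/2 or fha2, and with DESeq2. The median log2 fold change of the list was -0.57 in the mean and -0.14 in fha2.

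SNZ, an AP2-type repressor of flowering, was at 21.3 and 21.2 CPM in Col, 0.544 and 0.935 CPM in the libraries labelled chr11/17, 3.15 and 4.08 CPM in rlt1/2, but 28.8 and 23.9 CPM in fha2. SVP, a MADS-box repressor, was at 81.3 and 76.5 CPM in Col, 14.4 and 13.8, 51.1 and 52.6, and 79.7 and 81.6 CPM. For SNZ both fha2 libraries were above Col, and for SVP they overlapped with it. Their mean log2 fold changes of -2.36 ± 0.13 and -1.02 ± 0.07 (adjusted p = 4.49e-08 and 1.38e-07) thus come from 2 of the 3 genotypes, and the difference among the mutants was called for each (1.59e-09 and 1.47e-09).

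Promoters of flowering showed no common change. Of 11 genes, 1 was higher in the mean (FT, the mobile flowering signal) and 1 was lower (SPL3), against 23.7% and 24.9% of all genes. FT had 7 and 2 counts in Col, 16 in each library labelled chr11/17, 49 and 50 for rlt1/2, and 3 and 4 for fha2. Only rlt1/2 and the libraries labelled chr11/17 were above Col, and the mean log2 fold change of 1.33 ± 0.51 (adjusted p = 0.0465) lost its call in 7 of the 8 fits without 1 library, with 0.68 (adjusted p = 0.359) without Col replicate 2. SPL3, a squamosa-promoter binding factor, had a mean log2 fold change of -1.29 ± 0.15 (adjusted p = 2.07e-05) and was not called in all 3 mutants (0.226). SOC1 (listed as AGL20), FUL (AGL8) and AP1 were not called in the mean, with log2 fold changes of -0.34 ± 0.15, -0.08 ± 0.31 and 2.17 ± 1.08; AP1 rests on 0 to 15 counts per library.

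Genes of floral organ identity were higher in the mean in 5 of 8 cases and lower in 1, against 23.7% and 24.9% of all genes, with 1, SEP3, higher in all 3 mutants, against 1.14%. SEP3, a MADS-box factor of floral organs, was at 3.78 and 6.45 CPM in Col, 266 and 200 CPM in the libraries labelled chr11/17, 126 and 129 CPM in rlt1/2, and 9.05 and 19.2 CPM in fha2. The fha2 libraries were only a little above Col, and apart from each other. The mean log2 fold change was 3.87 ± 0.28, and the adjusted p for all 3 mutants of 0.029 failed in 5 of the 8 fits (up to 0.322). The list's medians were 5.79 for the genotype labelled chr11/17, 2.36 for rlt1/2 and -0.35 for fha2, and the number higher in the mean was 3 without Col replicate 1 and 3 when overlapping genes were left out.

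AP3, which specifies petals and stamens, went from 0.274 and 0.373 CPM in Col to 39.8 and 41 CPM in the libraries labelled chr11/17 and 11.1 and 13.2 CPM in rlt1/2, while fha2 held 0.132 and 0.351 CPM. SEP1 (AT5G15800) was at 0.219 and 0.32 CPM in Col, and at 18.6 ± 1.75 CPM (SD, n = 2), 16.2 and 15.8 CPM, and 0.618 and 0.526 CPM. For AP3 fha2 overlapped with Col. SEP1 overlaps another gene, and its mean log2 fold change went from 4.33 to 0.93 with both counts added.

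Seed storage and oil body genes were near 0 in Col and in fha2. Of the 11 tested, 7 were higher in the mean of the mutants and none was lower, against 23.7% and 24.9% of all genes, and none was called in all 3. CRA1, a cruciferin storage protein, was at 0.164 and 0.693 CPM in Col, 216 and 100 CPM in the libraries labelled chr11/17, 54.4 and 46.1 CPM in rlt1/2, and 0.662 and 0.395 CPM in fha2. The fha2 libraries lay between the Col libraries. The mean log2 fold change of 5.21 ± 0.69 (adjusted p = 5.59e-05) is made of 8.50, 6.84 and 0.29. OLEO2, an oleosin, and SESA1, a seed albumin, had 4.09 ± 0.88 and 6.51 ± 1.67, from 3 counts and 1 count in all in Col. OLEO2 overlaps another gene, and with both counts added its mean log2 fold change was 2.43, with -0.94 in fha2. The list's median of 5.21 became 4.09 when genes with 0 counts in a genotype were put at the floor of 3 counts, and 4 genes were higher without Col replicate 1, without fha2 replicate 1 or without fha2 replicate 2. Summed over the list, Col held 0.548 to 1.44 CPM and fha2 1.05 to 1.72 CPM, against 102 to 120 CPM in rlt1/2 and 209 to 493 CPM in the libraries labelled chr11/17.

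Heat shock genes were higher in the mean in 11 of 12 cases, against 23.7% of all genes, with a median of 1.60, made of 2.78, 2.12 and 0.36. HSP90.1, a chaperone, was at 7.95 and 8.05 CPM in Col, 53.4 and 53.1 CPM in the libraries labelled chr11/17, 46.5 and 38.8 CPM in rlt1/2, and 10.7 and 10.5 CPM in fha2. All 6 mutant libraries lay above both Col libraries, as they did for 11.1% of all genes tested, and the adjusted p for all 3 mutants was 0.12. HSP70 had a mean log2 fold change of 1.14 ± 0.09 and stood at 0.32 in fha2 (adjusted p = 0.054). One gene of the 12, HSP18.2, was higher in all 3 mutants (adjusted p = 0.019), against 1.14% of all genes, and the call failed without Col replicate 1 (0.137), without Col replicate 2 (0.119) and without fha2 replicate 2 (0.211). With total counts 4 genes of the list were called in all 3.

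Jasmonate genes were higher in the mean in 15 of 21 cases and lower in 1, against 23.7% and 24.9% of all genes, with a median of 0.84, made of 1.99, 0.39 and 0.15. JAZ7, a repressor that jasmonate induces, was at 0.822 and 0.427 CPM in Col, 6.94 and 7.44 CPM in the libraries labelled chr11/17, 8.8 and 7.11 CPM in rlt1/2, and 1.68 and 2.46 CPM in fha2. It rose in all 3 mutants (mean log2 fold change 2.97 ± 0.28, adjusted p for all 3 = 0.0182), as did LOX2, a lipoxygenase of jasmonate synthesis (0.95 ± 0.12), and MYC2, with the limit given above. LOX2 lost the call without Col replicate 2, without rlt1/2 replicate 2 and without either fha2 library. JAZ1 had a mean log2 fold change of 1.16 ± 0.09 with -0.10 in fha2. The call of JAZ7 failed without Col replicate 2 (0.179) and without fha2 replicate 2 (0.199). Without the genotype labelled chr11/17 the number higher was 7 and the median 0.27, and the number called in all 3 was 1 without Col replicate 2 or without fha2 replicate 2.

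Of 15 iron homeostasis genes 8 were lower and 3 higher in the mean, against 24.9% and 23.7% of all genes, so that the number higher is near that of any genes. The lower ones include the group Ib bHLH factors that iron deficiency induces, and the 3 higher ones were the ferritin genes FER1, FER3 and FER4, which store iron, with mean log2 fold changes of 1.06, 0.53 and 1.17. BHLH100 was at 9.7 and 8.16 CPM in Col, 0 and 0.0425 CPM in the libraries labelled chr11/17, 0.175 and 0.607 CPM in rlt1/2, and 6.93 and 5.26 CPM in fha2. BHLH101 was at 4.11 and 6.18 CPM in Col and at 5.48 and 4.52 CPM in fha2, where its range lay within that of Col. The libraries labelled chr11/17 and rlt1/2 were near 0 for both. bHLH38 passed the test of all 3 mutants (adjusted p = 0.0361), with a log2 fold change of -0.72 in fha2, and failed in 6 of 8 fits (up to 0.344). With the counts of the overlapping neighbours added, the mean log2 fold changes of bHLH38 and BHLH101 were -2.25 and -1.13.

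Of 10 phosphate starvation genes 7 were lower in the mean and 2 higher, against 24.9% and 23.7% of all genes, with a median of -0.61. SQD2, which makes sulfolipids, was at 122 and 110 CPM in Col, 5.85 and 5.78 CPM in the libraries labelled chr11/17, 69.7 and 90.2 CPM in rlt1/2, and 105 and 84.8 CPM in fha2. MGDC, a galactolipid synthase, was at 22.9 and 15.8 CPM in Col, 0 and 0.17, 5.52 and 13.4, and 14.4 and 4.04 CPM. The pairs of rlt1/2 and of fha2 libraries differed widely for MGDC. The mean log2 fold changes were -1.71 ± 0.10 and -3.27 ± 0.49, and neither gene passed in all 3 mutants. SPX3, described above, was the one that did. Without the genotype labelled chr11/17 the number lower was 3.

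The other lists held few shared changes, and their counts are to be read against 23.7% of all genes higher and 24.9% lower in the mean, to which those of the salicylic acid list are close. Of 9 ISWI genes 3 were higher and 3 lower, with a median of 0.22, and none changed in all 3; PTM, a PHD finger protein, had -0.47 ± 0.08. Of 13 salicylic acid defence genes 3 were higher and 4 lower in the mean and none changed in all 3; BGL2, a beta-glucanase, had 2.00 ± 0.22, SARD1, a regulator of salicylic acid synthesis, 1.46 ± 0.32 (0.76 with its neighbour's counts), and the number lower was 1 without Col replicate 1. Of 13 clock genes 1 was higher and 4 lower, among them PRR7 (-0.97 ± 0.07), CCA1 (-0.67 ± 0.08) and, on the higher side, PCL1 (0.76 ± 0.11), with fha2 values of 0.07, -0.12 and -0.14. Of 13 cell division genes 8 were higher and none lower, with a median of 0.45; PCNA1, the sliding clamp of DNA replication, had 0.75 ± 0.08 PCNA2, its paralog, 0.61 ± 0.10, and CYCB1;1, a mitotic cyclin, 0.94 ± 0.14, and none was called in all 3. These values are mean log2 fold changes.

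Of 11 root genes 2 were lower in the mean, SCR (-0.37 ± 0.09) and LRX1 (-0.51 ± 0.13), and neither stayed called with total counts; LRX1 also lost its call without Col replicate 1 (-0.18). The root list summed to 166.3 and 123.5 CPM in Col, 94.6 and 95.8 CPM in the libraries labelled chr11/17, 170.5 and 174.2 CPM in rlt1/2 and 122.9 and 122.7 CPM in fha2. Both root and leaf markers were thus present in every library. The part that a different share of organs has in the results above was not tested. Of 9 reference transcripts 3 were higher and 1 lower, with a median of 0.02; GAPC1 had 0.69 ± 0.10, ACT2 -0.45 ± 0.08 and AT4G34270 (TIP41-like) 0.37 ± 0.07, and with total counts 7 were higher and none lower. Under total counts the medians of the flowering promoter, salicylic acid, clock and root lists changed sign, to 0.19, 0.08, 0.15 and 0.07.

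**Figure D5:**
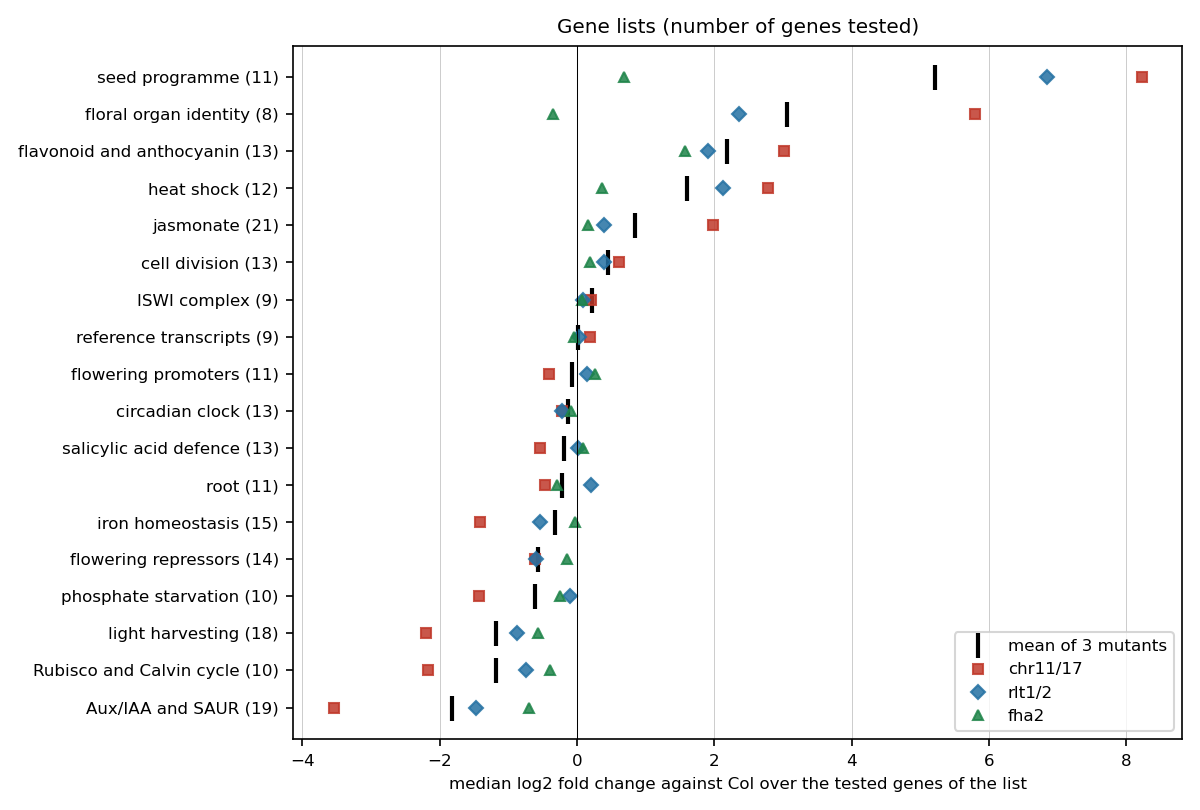
Median log2 fold change against Col (horizontal axis) over the tested genes of each of the 18 lists, for each mutant (coloured symbols) and for the mean of the 3 (black bar); the number of genes tested is in brackets. The flavonoid list is the one with fha2 at 1.57, while the seed and floral lists, farthest to the right in the mean, have fha2 at 0.68 and -0.35.

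Of the genes changed in all 3 mutants with a mean of at least 2-fold, 4 each way were chosen for the smallest spread between the mutants, which is given as a description. On the higher side they were NAC2 (AT3G15510) and NAC003, both NAC transcription factors, DTA2 and AT5MAT, with log2 fold changes in the chr11/17-labelled pair, rlt1/2 and fha2 of 1.13, 1.29 and 0.84 for NAC2, 1.10, 1.42 and 0.73 for NAC003, and 1.24, 1.17 and 0.67 for DTA2. On the lower side they were EXP3, an expansin, IDD7, AR781 and MT3, a metallothionein. EXP3 was at 86.4 and 85.4 CPM in Col, 37.7 and 36.9 CPM in the libraries labelled chr11/17, 41.3 and 42.4 CPM in rlt1/2, and 47.8 and 48.4 CPM in fha2. Its pairs of libraries were close to each other and none reached Col (mean log2 fold change -1.03 ± 0.06, adjusted p for all 3 = 4.35e-04). That none reached Col holds for all 439 genes lower in all 3 mutants.

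Of these 8 genes EXP3, IDD7 and AT5MAT are among the 68. The calls of NAC2, NAC003, DTA2, AR781 and MT3 failed in 3, 6, 5, 5 and 4 of the 8 fits, with adjusted p up to 0.129, 0.281, 0.165, 0.315 and 0.124. A difference among the mutants was called for NAC2 (adjusted p = 0.0269), NAC003 (0.0043), DTA2 (0.00253), AT5MAT (7.14e-04), EXP3 (0.0041) and MT3 (0.0146), and not for IDD7 (0.121) and AR781 (0.105). Because the 8 genes were chosen for a small spread, a missing call cannot show that their mutants are equal.

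Over the 40 named genes that changed in all 3 mutants the call was lost by 25 without fha2 replicate 2, by 12 without fha2 replicate 1, by 19 and 20 without Col replicate 1 and 2, and by 11 and 13 without rlt1/2 replicate 1 and 2. None lost it without a library labelled chr11/17.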

How the data were processed

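The deposited expression table gives expected counts (estimated counts per gene) per library by the authors, and beside them FPKM values, recognised as such from the values since the header names no unit; 18.7% of the expected counts are not whole. The submitters' processing notes list Bowtie2, RSEM and DESeq2 and the genome TAIR10 without saying what each was used for or in which version. No source used here says whether strand was kept, and 25.4% of the table's genes overlap another, whose reads may then be mixed with theirs. Names and neighbours come from the RefSeq annotation of TAIR10.1, whose name differs from that build, so no coordinates are printed.

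Counts were rounded, filtered with filterByExpr and scaled with TMM factors. One fit of all 8 libraries with genotype as its term was tested by quasi-likelihood in edgeR (version 4.0.16, under R 4.3.3): the mean of the 3 mutants against Col, each mutant against Col, and differences among mutants. A gene changed in all 3 mutants when the largest of its 3 p-values (1 where signs differ), Benjamini-Hochberg adjusted over all genes, was under 0.05. A genotype with 0 counts was given a floor of 3 counts over its libraries (0.136 to 0.143 CPM in a single library), and 1 to 3 counts an exact 95% interval; both cover counting error only. Values after ± are standard errors. FPKM entered no test. The authors' deposited comparisons were not used.

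Named genes followed a written rule: the ISWI and main flowering genes; the 8 each way farthest from Col in the mutant nearest to it among genes changed in all 3, with a symbol, at least 2 CPM in a genotype and no overlap of libraries; the 5 each way with the largest mean; up to 3 per list by adjusted p; 4 each way with 1 mutant called against the mean; and 4 each way with the most equal mutants and a mean log2 fold change of at least 1. Members and the 18 lists (246 genes) were chosen with earlier results of these data known. Same-numbered libraries did not deviate together across genotypes (correlations from -0.122 to 0.127), so replicate numbers were not taken as pairs. Alternatives were RLE size factors, total counts, other filters, DESeq2 1.42.0, limma-voom (limma 3.58.1), a replicate block, leaving out each library, each mutant or all overlapping genes, and mutant or Col as the only term. Scripts were tested on simulated data.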

Additional observations from a re-analysis of the deposited data

Results flagged for a closer look

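The 8 genes below were chosen because the mean of the mutants was called while 1 mutant was called the other way against Col. The mutants also differed among themselves by the edgeR quasi-likelihood test. A mutant called against the mean already implies such a difference. The adjusted p of that difference is therefore given as a description of the chosen genes, not as a separate result. Without chr11/17, whose libraries lay farthest from Col in 7 of the 8, the means of several of these genes have another sign, as given further on.

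CYS2, a cysteine protease inhibitor, was at 3.84 and 5.39 CPM in Col, 90.6 and 81.3 CPM in the libraries labelled chr11/17, 8.24 and 7.72 CPM in rlt1/2, and 3.27 and 2.54 CPM in fha2 (adjusted p of the difference among mutants 1.81e-10). PGIP1, an inhibitor of pectin-degrading enzymes, was at 96.6 and 67.2 CPM in Col, and at 688 and 629, 122 and 143, and 58 and 53.3 CPM (3.16e-09). In both, fha2 lay below Col and the other mutants above it. CYS2 overlaps another gene, and with both counts added its fha2 log2 fold change was 0.0646, no longer below Col. MES8, a methylesterase, was at 1.86 and 1.65 CPM in Col, and at 7.8 and 6.17, 13.9 and 15.8, and 0.353 and 0.526 CPM (1.01e-08). GDPD5, a glycerophosphodiester phosphodiesterase, had log2 fold changes of 2.04, 1.18 and -0.38 (2.91e-09). In these 4 genes fha2 was the exception; over all 156 genes higher in the mean with a mutant called the other way it was fha2 in 135, chr11/17 in 13 and rlt1/2 in 8.

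Of the lower genes PCC1, a gene regulated by pathogens and the clock, was at 12.2 and 13.6 CPM in Col, 0.0454 and 0.0425 CPM in the libraries labelled chr11/17, 54.4 and 47.6 CPM in rlt1/2, and 7.55 and 4.21 CPM in fha2 (adjusted p of the difference among mutants 1.07e-09). RTFL18 had the same exception, with log2 fold changes of -5.89, 0.91 and -0.47 (5.27e-08). SUS4, a sucrose synthase, was at 59.6 and 59.6 CPM in Col, 0.454 and 0.638 CPM in the libraries labelled chr11/17, 57.6 and 70.6 CPM in rlt1/2, and 87.6 and 79.7 CPM in fha2 (1.45e-10). HB-7 (AT5G46880), of the homeodomain-leucine zipper family, was at 3.78 and 4.69 CPM in Col, 0.181 and 0.34 CPM in the libraries labelled chr11/17, 2.32 and 1.91 CPM in rlt1/2, and 6.54 and 7.06 CPM in fha2 (1.25e-07). In SUS4 and HB-7 it was fha2 that was called above Col. Of all 156 genes lower in the mean with such an exception it was fha2 in 115, rlt1/2 in 42 and chr11/17 in 5. A gene can count for more than 1 mutant.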

How the results depend on the processing

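Counts are given as higher and lower. The mean of the mutants gave 8971 and 2741 genes with total counts, and 2367 and 2873 without the genotype chr11/17. With mutant or Col as the only term, 0 and 0 genes were called by edgeR (2304 genes at an unadjusted p under 0.05; smallest adjusted p 0.0502), and, with tools chosen after seeing the data, 1 and 3 by limma-voom and 200 and 161 by DESeq2; in that fit the differences between the mutant genotypes count as spread. Change in all 3 mutants gave 1529 and 156 genes with total counts; 278 lower without overlapping genes; 372 higher in the 2 mutants left without rlt1/2; and 2913 and 3139 in the 2 left without fha2. The replicate block gave 230 and 418 for change in all 3 and 4854 and 5123 for the mean, from 2 numbers that did not pair the libraries. Leaving out 1 library gave 3533 to 5012 and 3996 to 5386 genes for the mean, 39 to 307 and 43 to 616 for change in all 3, and 14137 to 15810 for differences among the mutants.

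Of 92 named genes the mean log2 fold change kept its sign and side of the threshold in 1664 of 1726 results, fits with mutant or Col as the only term aside; 42 lost the call, 10 gained it and 10 changed sign. Signs changed for HB-1 (AT1G28420) with total counts (0.16), without rlt1/2 (0.29), without Col replicate 2 (0.16, and -0.33 without Col replicate 1) and with mutant or Col as the only term (0.0137 by edgeR, 0.0163 by DESeq2); for AGL8 with total counts (0.19), without chr11/17 (0.0878) and without Col replicate 2 (0.41, and -0.44 without Col replicate 1); for PCC1 without chr11/17 (0.42) and with mutant or Col as the only term (0.56 by edgeR, 0.55 by DESeq2); and without chr11/17 for LRX1 (0.0122), SUS4 (0.30) and RTFL18 (0.22). The cause was not tested. Depth limits genes such as FT and AP1, with 0 to 50 counts a library.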

Other observations

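Beyond the lists, the 68 genes that passed in every fit without 1 library hold further genes; those below were picked out after their values were seen, and no theme was tested. GPT2, which carries glucose 6-phosphate into plastids, was at 3.01 and 3.41 CPM in Col, 476 and 501 CPM in the libraries labelled chr11/17, 46.7 and 53.4 CPM in rlt1/2, and 7.33 and 8.25 CPM in fha2. APL3, a large subunit of the first enzyme of starch synthesis, was at 22 and 28.2 CPM in Col and at 457 and 410, 140 and 174, and 55.4 and 77.8 CPM. ISA3, a starch debranching enzyme, was at 19.5 and 21.6 CPM in Col and at 249 and 224, 60.3 and 70.5, and 36.7 and 40.4 CPM. In all 3 genes every mutant library lay above Col, as in all 238 genes higher in all 3 mutants. Their levels rose in an order from fha2 to rlt1/2 to chr11/17. Among the 238 genes chr11/17 was the highest mutant in 84.5%, and fha2 was the lowest in 197. The sugar transporter gene SAG29 (mean log2 fold change 2.62 ± 0.15), the vacuolar cation exchanger gene CAX3 (2.57 ± 0.11), the nitrilase gene NIT2 (2.81 ± 0.12), the nitrate transporter gene NRT1.7 (1.82 ± 0.12) and HAI1, a protein phosphatase of abscisic acid signalling (2.33 ± 0.14), rose in all 3 mutants too.

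On the lower side of the 68 genes stood PnsL4 and CRR3, subunits of the chloroplast NADH dehydrogenase-like complex, and PPL1, a PsbP-like protein of photosystem II repair. PnsL4 was at 134 and 117 CPM in Col, 16.8 and 16.2 CPM in the libraries labelled chr11/17, 67.1 and 68.6 CPM in rlt1/2, and 68.1 and 62.9 CPM in fha2. For this gene rlt1/2 and fha2 had about the same level, between Col and chr11/17. The mean log2 fold changes of CRR3 and PPL1 were -1.37 ± 0.07 and -1.37 ± 0.06.

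Besides MYC2, described above, a pair of genes in the 68 had near all-or-none counts between Col and the mutants, and both overlap another gene. AT1G64795 had 0 and 1 counts in Col, and 398 and 377, 184 and 179, and 252 and 244 in the mutants. CML30, a calmodulin-like protein, had 36 and 34 counts in Col and 0 in all 6 mutant libraries, which is at least 28.7-fold lower in each mutant.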
